A study of Homo sapiens with 22 samples.

Results

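The Mediator subunit genes were taken as the protein-coding GENCODE version 44 genes whose symbol is MED followed by digits and an optional L, plus CDK8, CDK19 and CCNC. This rule gave 33 of the 19970 protein-coding genes on chromosomes 1 to 22 and X. In every sample K562 cells, a human leukemia cell line, received by electroporation the donor plasmid Barcoded-PBase-SRT-Puro, which carries a self-reporting transposon, together with a helper plasmid for the piggyBac transposase, either hyPBase or hyPBase-centrip. What sets hyPBase-centrip apart is not stated in the sources used here. The cells were selected with puromycin for 11 days, and RNA from every 3 transfections was combined, so that a library is a mixture of many insertion events in a pool of cells. There were 10 libraries for each helper. The labels do not say that each library is a separate culture, so the p-values measure only the spread between these libraries, which may be technical.

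The transposase inserts the transposon at TTAA, and the position is read from the RNA that each inserted transposon makes. The bulk Calling Cards libraries held between 1508684 and 3594563 insertions on chromosomes 1 to 22 and X, 52121198 in all, and 0 of them lay off a TTAA. The hg38 genome holds 19049403 TTAA sites on these chromosomes, of which 48.1% were hit. The 33 genes held 54909 insertions at the 15272 TTAA sites between their annotated starts and ends. Sites that also lie in another protein-coding gene were kept. Density is given throughout as relative density, the insertions per TTAA site in a region over the insertions per TTAA site of the same library genome-wide, so that 1 is the genome average. As a check of the cell line, the median relative density in the bodies of 8 erythroleukemia marker genes was 6.05. That of 8 markers of other blood lineages was 0.735. Bodies were above 1 in 7 of the first 8 and in 2 of the other 8. The exception among the first 8 was GATA1 with 0.609, from 5 insertions at 3 TTAA sites. CDKN2A, which this line is known to have lost, held 1 insertion at 220 TTAA sites. Insertion density is not expression, and the copy number of each gene in K562 was not measured here.

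Mediator is a large complex that stands between DNA-bound transcription factors and RNA polymerase II. Its core has a head and a middle module that contact the polymerase, a tail module that is contacted by many activators, and MED14, which runs through the core as a backbone. A separable kinase module of CDK8 or CDK19 with cyclin C, MED12 or MED12L, and MED13 or MED13L docks on the core and controls its contact with the polymerase.

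The TTAA sites with the most insertions in the 33 gene bodies are shown first, because in several genes a large part of the density rests on such a site. Each line gives 30 bases of hg38 around the site, written 5′ to 3′ on the strand of the gene, with the TTAA in capitals.
MED24 site, chr17:40054568-40054597: tggatgtcctcccTTAAaggagaagaacaa
MED18 site, chr1:28329585-28329614: gccttggctctctTTAAaaggcatttttag
MED13L upstream site, chr12:116164526-116164555: aatagccatctgtTTAAagcgtctggtttt
MED13L downstream site, chr12:116123771-116123800: tgtaaaatgctctTTAAgattattgtagca
MED15 site, chr22:20502431-20502460: ttttttaaatcccTTAAaggagttatattc
MED1 site, chr17:39404674-39404703: acagttgagtcacTTAAagatgtcagtata

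The MED24 site (chr17:40054581-40054584) held 355 insertions and was hit in all 20 libraries, with a lowest value of 11, a median of 17.5 and a highest of 24 per library. It lay 6634 bp inside the annotated 5′ end of the gene, in an untranslated exon of a longer MED24 transcript, and upstream of the start of the MANE Select transcript, the representative transcript of the gene. The MED18 site (chr1:28329598-28329601) held 354 insertions, 13 to 22 per library, in an intron 596 bp inside the gene. Both MED13L sites were intronic, deep inside the gene, with 331 and 325 insertions. The MED15 site held 277 insertions, 97.8% of them in the orientation of the gene, although the gene as a whole had the opposite lean described below. The MED1 site, in the untranslated last part of the gene, 46585 bp from its 5′ end, held 241 insertions and was likewise used almost entirely in the orientation of the gene (97.9%). A TTAA site of the genome held 2.74 insertions on average and the 99.9th percentile over all sites was 176 insertions, so all 6 sites lay above it. All 6 were hit in all 20 libraries, hence under both helpers. They were picked as the most used of the 15272 body sites, so both observations follow largely from that choice. Neither shows that these genes are rich in such sites.

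The letters beside the TTAA were compared over all sites of the 33 bodies, a comparison added after the values were seen. TTAAA, read on either strand, was present at 9860 of the 15272 sites (64.6%) and at 79 of the 99 sites (79.8%) made up of the 3 most used sites of each gene. At the 5412 sites with no such A on the outside of the TTAA the relative density was 0.846 ± 0.0346 in the hyPBase libraries and 0.841 ± 0.0334 in the hyPBase-centrip libraries (SD, n = 10 for each helper). At the 6937 sites with TTAAA on 1 side it was 1.33 ± 0.0618 and 1.39 ± 0.0492, and at the 2923 sites with TTAAA on both sides 2.04 ± 0.0677 and 2.05 ± 0.0925. The ranges of the 3 kinds of site did not overlap in the libraries of either helper. The density was higher at sites with TTAAA than at the others in 30 of the 33 genes. These are descriptions of Mediator genes, and other genes were not examined for it.

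The promoters of MED18 and MED24 are shown because the data bear on them directly: MED18 had the densest promoter window of the 33 genes, and the most used site of all lies in the RefSeq promoter of MED24. Each runs from 250 bases before to 50 after the start, as RefSeq gives it on GRCh38.p14, 5′ to 3′ on the strand of the gene. Capitals mark TTAA and matches to CCGGAAG (the core of ETS family sites) and AAGATGGC (YY1) on either strand.
MED18 promoter, chr1:28328790-28329089: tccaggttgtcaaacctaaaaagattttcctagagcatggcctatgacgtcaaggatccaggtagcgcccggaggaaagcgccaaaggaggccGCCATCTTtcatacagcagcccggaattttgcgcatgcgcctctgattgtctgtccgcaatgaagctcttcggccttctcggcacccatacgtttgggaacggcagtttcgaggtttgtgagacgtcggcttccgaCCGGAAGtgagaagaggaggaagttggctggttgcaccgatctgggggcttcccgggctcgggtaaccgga
MED24 promoter, chr17:40054359-40054658: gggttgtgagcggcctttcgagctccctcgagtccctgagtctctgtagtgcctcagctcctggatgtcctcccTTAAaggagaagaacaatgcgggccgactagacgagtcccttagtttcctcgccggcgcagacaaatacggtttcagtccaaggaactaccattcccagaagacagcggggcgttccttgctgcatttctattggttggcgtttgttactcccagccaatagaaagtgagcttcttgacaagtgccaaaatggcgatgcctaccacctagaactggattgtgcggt

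RefSeq entries of this kind matched 25 of the members, with 30 promoters, and 15316 protein-coding genes in all, with 21571 promoters. A gene is counted once if any of its promoters holds the letters, since the windows of 1 gene can overlap. CCGGAAG was found in 7 of the 25 members, against 16.7% of all genes and 12.9% of all promoters. AAGATGGC was found in 5 (4.75% of all genes, 3.58% of promoters) and the NRF1 motif in MED18 alone (1.97% and 1.48%). CCAAT was found in 10 members (42.5% and 34.8%), the TATA box TATAAA in 2 (12.4% and 9.45%) and TTAA in 10 (46.2% and 40.3%). The members' promoters had a median GC content of 58.5%, against 62.3% over all. The match of MED24's capital TTAA is the site with 355 insertions, and MED18's promoter holds no TTAA in these 300 bases, so the insertions of its promoter window lay outside them.

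Over all 20 libraries together, the density in the bodies of the Mediator genes was close to that of genes at large, while their promoters were denser. The median relative density in the body was 1.15 over the 33 genes and 1.17 over all protein-coding genes. In the promoter, the 1 kb on either side of the annotated 5′ end, it was 4.97 against 1.67, and in the 20 kb flanks on either side of the gene 1.94 against 1.56. Promoters were above the genome average in 28 of the 33 genes, where 60.0% of all promoters were, and bodies in 21, where 57.2% of all bodies were. Flanks were above it in 26 of the 33, against 68.6% of all. Other machinery that every cell uses was compared, leaving out genes without a TTAA in the promoter window. The promoter medians were 5.18 (10 of the 12 RNA polymerase II genes) and 7.68 (the 13 TFIID genes). They were 3.39 for the 15 Integrator genes and 5.98 for 37 of the 39 proteasome genes. The Mediator median lay within that range.

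**Figure D1:**
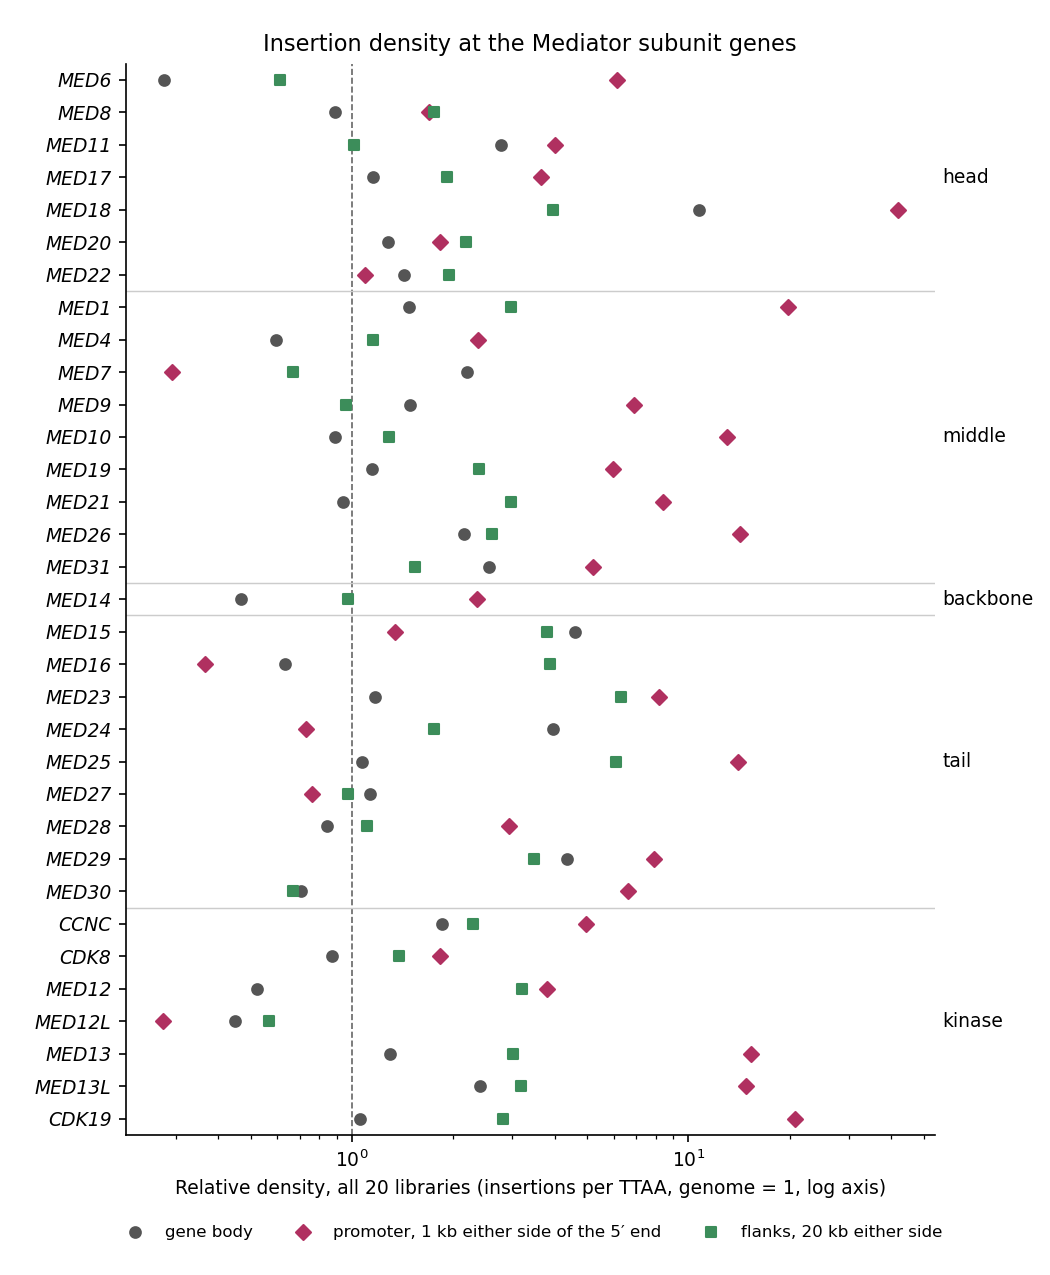
Relative density in the body (circles), promoter (diamonds) and flanks (squares) of each of the 33 genes, all 20 libraries together, on a log axis with the genome average of 1 as a dashed line and the genes in order of module. The promoter diamonds lie to the right of the line in 28 genes, with MED18 farthest out at 41.9, and the body circles lie on both sides of it, from 0.276 for MED6 to 10.7 for MED18.

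The head module, whose subunits contact the polymerase, held both the densest and the sparsest body. MED18, which forms a movable part of the head with MED20, had a relative density of 10.7 in its body, higher than 98.4% of genes. Its values ran from 8.42 to 15.3 with hyPBase (median 10.7) and from 9.17 to 15.2 with hyPBase-centrip (median 10.1), so all 20 libraries stood far above the genome average. The density fell along the gene, from 16.9 in the 5′ part of the body to 7.43 in the middle and 3.70 in the 3′ part (3 parts of equal length). Without the site shown above the body still had 7.02. The 500 kb on either side of MED18 had a relative density of 4.27, so the surroundings were dense as well.

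MED6 had the lowest body density of the members, 0.276, from 96 insertions at 127 TTAA sites, and 1 of the hyPBase-centrip libraries had none. Its promoter, by contrast, had 6.15. MED11, a small head gene that pairs with MED22 in the complex, was among the 5 highest at 2.78, but this rested on 38 insertions at 5 TTAA sites and its libraries ran from 0 to 5.43. MED17, the scaffold of the head, lay near the median with 1.15, and MED8, MED20 and MED22 had 0.891, 1.28 and 1.43. At its sites in no other protein-coding gene MED17 had 3.21, and MED20 has no such site.

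In the middle module the bodies ranged from 0.596 to 2.56. The lowest was MED4, whose libraries had a lowest value of 0.415, a median of 0.597 and a highest of 0.830, all below the genome average. MED31, MED7 and MED26, the subunit that links Mediator to elongation factors, had 2.56, 2.20 and 2.15. Every TTAA site in the bodies of MED7 and MED26 also lies in another protein-coding gene. In MED7, 444 of the 826 body insertions lay within 1 kb of the MANE Select start, 16154 bp inside the annotated gene. MED1, through which many nuclear receptors reach the complex, had 1.48, of which the single untranslated site made up 29.8% of the insertions. Its exonic TTAA sites had a relative density of 5.48, against 0.602 for the others.

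MED14, the backbone, was among the 5 lowest at 0.467, and its 20 libraries ran from 0.33 to 0.641. Its flanks had 0.976 and the 500 kb around it 1.55.

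The tail module, which activators contact, held 3 of the 5 densest bodies. MED15, a target of sterol-response factors, had 4.60, with 3.84 to 5.36 under hyPBase and 3.95 to 5.86 under hyPBase-centrip. The 500 kb around it had 4.87 and its 20 kb flanks 3.80, and the body was denser than the flanks (log2 0.28, SE 0.0517, adjusted p = 2.78e-07, by the edgeR test described below). MED29 had 4.37, spread widely from 2.04 to 7.47 between libraries, and its body holds only 20 TTAA sites. MED24 had 3.95, which fell to 2.84 without its most used site, and 8.84 in its 5′ part against 0.404 in its 3′ part. Its 5 exonic TTAA sites had 44.4, and its other 109 sites 2.10. The remaining tail genes had between 0.633 (MED16) and 1.17 (MED23).

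The kinase module is made of paralog pairs and CCNC. MED12, which activates the kinase, and its paralog MED12L were both among the 5 lowest, with 0.524 and 0.449, and their libraries overlapped (0.179 to 1.1 and 0.384 to 0.519). MED13, which ties the kinase module to the core, had 1.30 with a range of 1.06 to 1.52, and MED13L 2.40 with a range of 2.12 to 2.59, so the ranges did not overlap. The kinases CDK8 and CDK19 had 0.875 (0.654 to 0.973) and 1.06 (0.855 to 1.23), with overlapping ranges. Cyclin C, CCNC, had 1.85. MED13L alone, the second longest of the 33 genes with 2934 TTAA sites, held 35.1% of the members' body insertions, so sums over the members lean on it, and medians are given for that reason.

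**Figure D2:**
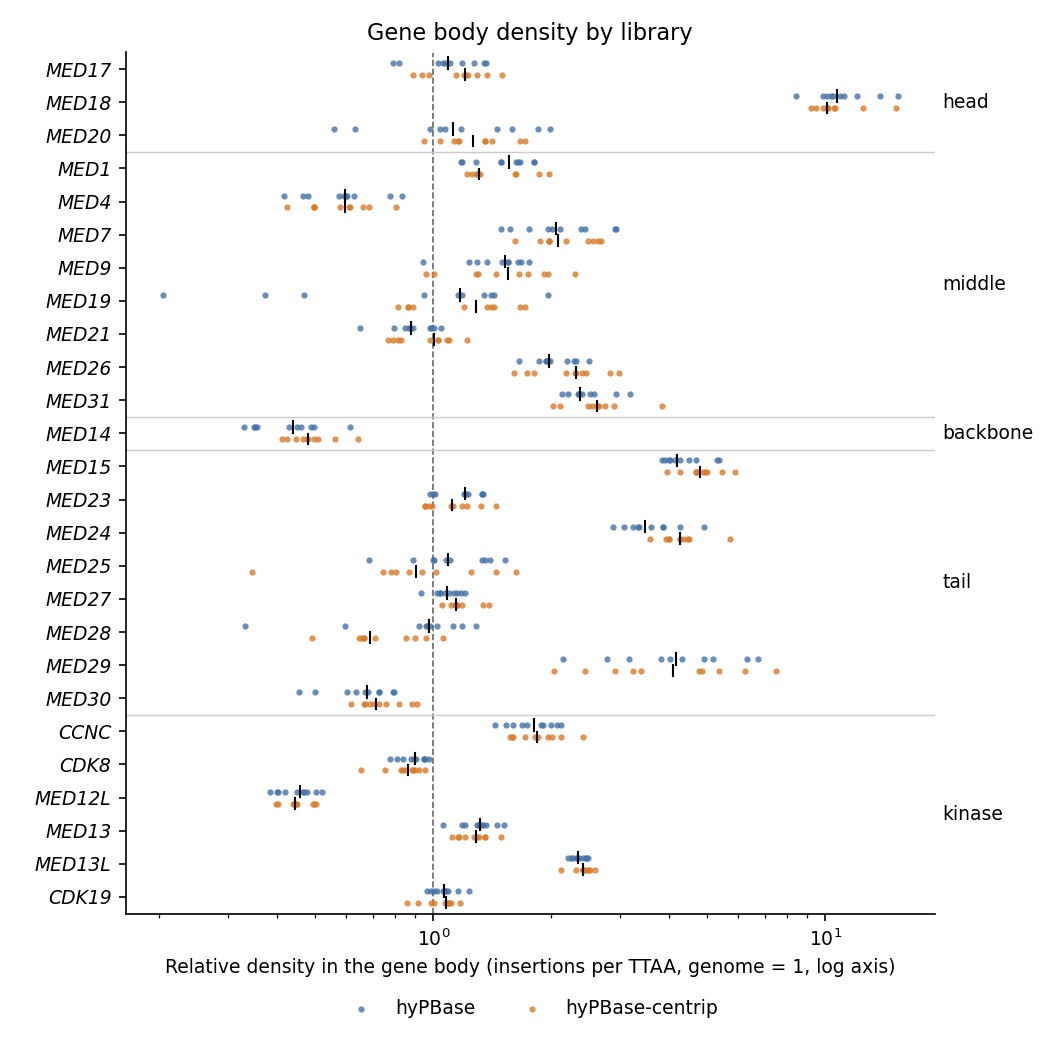
Relative density in the gene body in each library, hyPBase in blue and hyPBase-centrip in orange with a black bar at the median of each helper, for the 26 genes with at least 100 body insertions, on a log axis with the genome average as a dashed line. The points of both helpers overlap in every gene, and the genes with many sites, such as MED13L (2.12 to 2.59) and MED12L (0.384 to 0.519), have the narrowest spread.

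Over all members the 800 exonic TTAA sites had a relative density of 2.08 and the other 14472 sites 1.27. MED24 and MED1 held 607 and 540 of the 4547 exonic insertions, and without both genes the values were 1.64 and 1.27. The exonic sites were the denser ones in 22 genes and the sparser ones in 11, among them MED18 (4.39 against 12.4) and MED13L (1.53 against 2.42). The difference was not tested, and exonic sites were not counted over all genes.

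Promoters were compared with the flanks of the same gene within each library, by edgeR's quasi-likelihood test with Benjamini-Hochberg adjustment over 15607 genes. The 1 kb upstream of the 5′ end belongs to both regions, so the 2 sides of the test share its insertions. Before any test, 24 of the 33 promoters were denser than their flanks, where 55.7% of all promoters were. Of the 32 members tested, 25 differed (74.6% of all genes), 22 with a denser promoter, where 49.3% of all genes had one, and 3 with a sparser one, where 25.3% had. The median log2 ratio was 1.23 over the members and 0.53 over all genes tested. The highest ratios were those of MED18 (log2 3.40, SE 0.068, adjusted p = 4.3e-44), MED10 (3.32, SE 0.185, adjusted p = 2.58e-23) and MED6 (3.32, SE 0.132, adjusted p = 6.19e-30). They were smaller when each position and orientation was counted once per library, 1.57, 2.58 and 2.75, and MED18's and MED10's were 2.33 and 1.58 with promoters of 2 kb on either side. MED18's promoter window had a relative density of 41.9, with 31.8 to 55.9 under hyPBase and 35.9 to 49.9 under hyPBase-centrip. It held 802 insertions at 7 TTAA sites. Of these, 354 lay at the intronic site shown above and 138 at an intronic site 248 bp inside the gene. Both sites count in the body as well. CDK19, MED1, MED13, MED13L, MED26, MED25 and MED10 followed with promoter densities between 20.7 and 13. MED26's window lies 858 bp from its MANE Select start, around which the density was 4.93 in place of 14.3.

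The 3 sparser promoters were those of MED16 (log2 -3.32), MED15 (-1.49) and MED7 (-1.17). For MED15 and MED7, and for MED24 with 1 TTAA in its promoter window, the annotated 5′ end is that of a long transcript, 11697, 16154 and 6807 bp from the start of the MANE Select transcript. Around the MANE Select start, a window chosen after the values were seen, the relative density was 2.74 for MED15, 10.1 for MED7 and 26.5 for MED24, in place of 1.34, 0.292 and 0.731. The median over the 33 genes became 5.95, against 1.71 over all genes. For the other machinery it was 1.42 (RNA polymerase II, 9 genes with a TTAA there), 9.61 (TFIID), 4.61 (Integrator) and 6.23 (proteasome). MED16 (0.365) and MED27 (0.759) had sparse promoters at either start, and MED12L fell from 0.274 to 0, from 3 insertions.

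**Figure D3:**
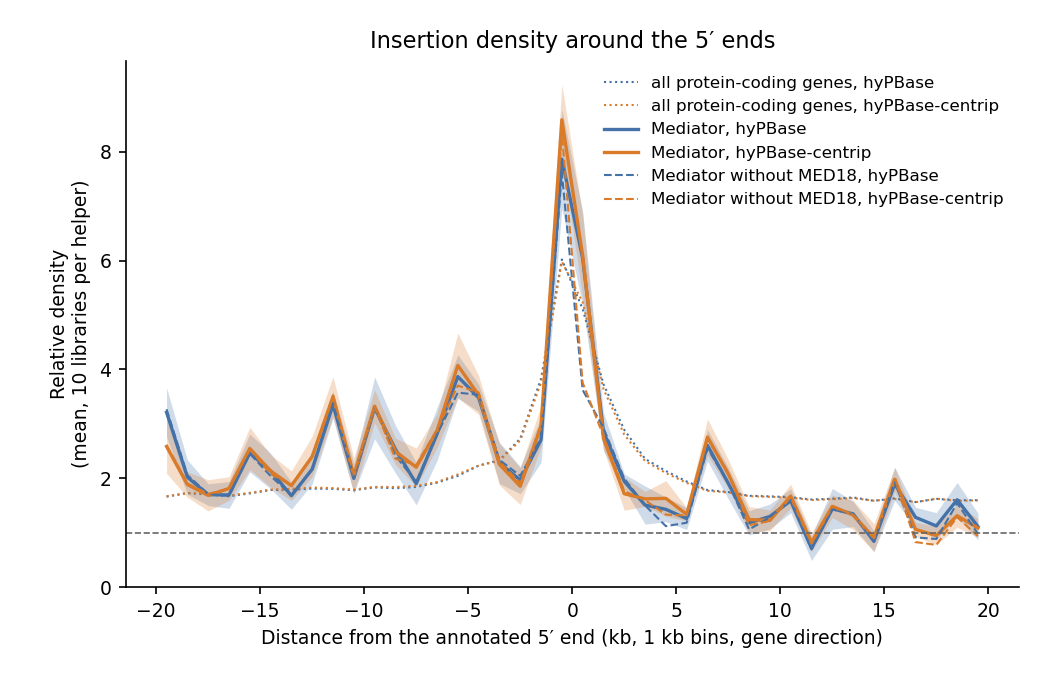
Relative density in 1 kb bins from 20 kb upstream to 20 kb downstream of the annotated 5′ end, in the direction of the gene, as the mean of 10 libraries per helper (shading, SD) for the 33 genes, for the same genes without MED18 (dashed) and for all protein-coding genes (dotted). The members peak in the 1 kb upstream of the 5′ end at 7.86 with hyPBase and 8.58 with hyPBase-centrip, against 6.02 and 5.98 for all genes.

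Summed over genes rather than taken as a median, the peak at the 5′ end was nearer that of all genes. In the 1 kb upstream the members had 7.86 ± 0.911 in the hyPBase libraries and 8.58 ± 0.647 in the hyPBase-centrip libraries (SD, n = 10 for each helper). In the 1 kb downstream they had 6.04 ± 0.861 and 6.09 ± 0.748, but 3.62 ± 0.596 and 3.76 ± 0.686 without MED18, below the 5.11 and 5.24 of all genes. From 1 to 2 kb downstream the members had 2.86 and 2.73, and all genes 3.73 and 3.64. The upstream flank was denser than the downstream flank in 20 of the 33 genes, where 56.3% of all genes had that order. The difference was wide in MED23 (11.8 against 1.40) and MED12 (6.63 against 0.499).

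Bodies were mostly sparser than the flanks of the same gene. These flanks include the dense 1 kb upstream of the 5′ end. In the same kind of test over 17163 genes, 31 of the 32 members tested differed (83.4% of all genes), 23 of them with a sparser body (56.2% of all genes) and 8 with a denser one (27.2%). MED16 and MED12 had the sparsest bodies for their flanks, both with a log2 ratio of -2.58 (SE 0.17 and 0.129). MED25 (-2.49) and MED23 (-2.43) followed. MED7 and MED18 had the densest, with 1.72 (SE 0.0874) and 1.44 (SE 0.0607). The body of MED7 includes the 1 kb on either side of its MANE Select start, with 444 of its 826 insertions. All its TTAA sites also lie in another protein-coding gene. MED30 did not pass, at 0.08 (SE 0.0969). Across the 33 genes Spearman's rho was 0.35 between body and flank density and 0.44 between promoter and flank density. This describes genes that share the same libraries. Promoter and flanks share the 1 kb upstream, so the second value is not one between separate regions.

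The comparison of the helpers asks whether hyPBase-centrip placed insertions differently at these genes. It gave few differences, with edgeR's quasi-likelihood test, TMM normalization and Benjamini-Hochberg adjustment over all genes tested. In the bodies 0 of the 24 members that passed the filter were called, where 2.37% of all genes were. DESeq2 also called 0, giving no adjusted p for MED24, and 3 members had an unadjusted p under 0.05. The largest difference among those 3 was that of MED24, whose libraries had a lowest value of 2.88, a median of 3.47 and a highest of 4.90 with hyPBase, and 3.57, 4.25 and 5.72 with hyPBase-centrip. The log2 difference was 0.23 (SE 0.0824, adjusted p = 0.11), and the libraries overlapped. It was called with library size as a term (0.28, adjusted p = 0.0452), the lowest of its alternatives, which ran up to an adjusted p of 0.906, and was 0.20 (adjusted p = 0.208) without hyPBase-centrip replicate 3, its highest library. MED15 had 0.13 (SE 0.0557, adjusted p = 0.215) and MED27 0.10 (SE 0.0484, adjusted p = 0.299). MED12 did not pass the filter, so its means of 0.380 ± 0.177 and 0.660 ± 0.206 (SD, n = 10 each) were not in the main test. It entered only an alternative fit without the filter, whose result for MED12 is not reported here.

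At the promoters 0 of the 8 members tested were called by edgeR, where 2.32% of all genes were, and DESeq2 called 0. There 2 members had an unadjusted p under 0.05. MED13 had 9.82 to 17.0 with hyPBase (median 12.4) and 10.6 to 22 with hyPBase-centrip (median 18.3), a log2 difference of 0.42 (SE 0.13, adjusted p = 0.104). MED26 had 0.41 (SE 0.159, adjusted p = 0.195). In both the libraries of the helpers overlapped. The other 25 members had too few promoter insertions per library for the filter.

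In the flanks all 33 members were tested and 1 was called, CCNC, where 1.53% of all genes were, and 0.382% as higher with hyPBase-centrip. The flanks of CCNC, the cyclin partner of both kinases, had a lowest value of 1.64, a median of 2.04 and a highest of 2.85 with hyPBase, and 1.90, 2.49 and 3.03 with hyPBase-centrip. The medians were apart but the libraries overlapped. The log2 difference was 0.24 (SE 0.0664, adjusted p = 0.0325). No share over all genes was taken for the counts of unadjusted p, here or above. An unadjusted p under 0.05 was found for 6 members, CCNC included. Among these MED22 had a larger difference than CCNC, 0.30 (SE 0.116, adjusted p = 0.21), and MED13L had 0.20 (SE 0.0651, adjusted p = 0.107). This call did not hold with DESeq2 (0.24, adjusted p = 0.0776) or when each position and orientation was counted once per library (0.16, adjusted p = 0.999), and with 50 kb flanks the difference turned to -0.03 (adjusted p = 0.798). The body of CCNC had 1.80 ± 0.234 and 1.86 ± 0.268 (SD, n = 10 each). Over the members the median log2 difference was 0.03 in the bodies, 0.04 at the promoters and 0.02 in the flanks. On simulated counts with 1.5-fold changes the test recovered 91% of the changed genes in the bodies, 73% at the promoters and 81.5% in the flanks.

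Each insertion has an orientation, and since TTAA is its own reverse complement, a gene with no lean has a same-strand share of 50%. The share is the percent of body insertions whose orientation sign is that of the gene, at sites not covered by a protein-coding gene on the other strand. Sites shared with another gene on the same strand were kept. Which end of the transposon the sign stands for is not stated in the sources used here. In the Mediator genes most insertions pointed against the gene: the share was 23.5% of 50604 insertions, against 33.2% over all genes. The same share was 16.9% in the RNA polymerase II genes, 23.8% in the proteasome genes, 24.9% in the Integrator genes and 33.3% in the TFIID genes. These shares are sums that lean on genes with many insertions. Medians over genes with at least 100 counted insertions had another order. They were 17.3% for Integrator and for the proteasome, 22.1% for Mediator, 26.5% for RNA polymerase II and 36.5% for TFIID. Over all genes the median was 31.7%. In the Mediator genes the share was below 50% in 28 of the 32 members with a value, where 80.7% of all genes were. CCNC had no value, since every site of its body is covered by a gene on the other strand.

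By edgeR's quasi-likelihood test with the library as a block and Benjamini-Hochberg adjustment over 14030 genes, 22 of the 24 members tested departed from an even split, where 88.7% of all genes did. There were 21 with fewer insertions in the orientation of the gene (82.1% of all genes) and 1 with more (6.59%). The lowest shares were in MED19, MED20 and MED23. MED19, a part of the middle module, had a same-strand share of 3.74% (log2 ratio -4.02, SE 0.403, adjusted p = 3.29e-21), from only 107 insertions. MED20 had 5.71% of 210 insertions (-3.79, SE 0.282, adjusted p = 4.59e-35). All 210 lay at sites that also belong to another protein-coding gene on the same strand, so the lean cannot be assigned to MED20 alone. MED23, which receives signals from the ETS factor ELK1, had 8.18% of 1504 insertions (-3.46, SE 0.0992, adjusted p = 2.47e-135). MED23's libraries ran from 2.78% to 10.8% with hyPBase (median 6.65%) and from 3.85% to 12.8% with hyPBase-centrip (median 9.17%), so none came near 50%.

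MED29 was the 1 tested member with the reverse lean, 69.9% of 239 insertions (log2 1.19, SE 0.199, adjusted p = 6.77e-09), above 50% in 19 of its 20 libraries and at 50% in the other. MED11, which was not tested, had 92.6% of 27 insertions and was above 50% in 15 of the 17 libraries with a value. MED1 and MED31 had no call, with 53.5% (log2 0.20, SE 0.102, adjusted p = 0.0594) and 49.8% (-0.01, SE 0.144, adjusted p = 0.927). MED1 rested on its untranslated site: without it the share was 34.6%. When each position and orientation was counted once per library, MED1's log2 ratio was -0.94 (adjusted p = 8.62e-11). It passed in the other direction with at least 2 reads per insertion (0.27, adjusted p = 0.0421) and without hyPBase-centrip replicate 3 (0.23, adjusted p = 0.032). MED29 kept 58.1% without its own most used site. MED15 went from 24.6% to 17.5%.

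In the kinase module MED13L had 21.2% and MED13 15.5%, MED12L 21.1%, CDK8 30.5% and CDK19 23.4%, each below 50% in all 20 libraries. MED12 had 50.0% of 86 insertions and was not tested.

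**Figure D4:**
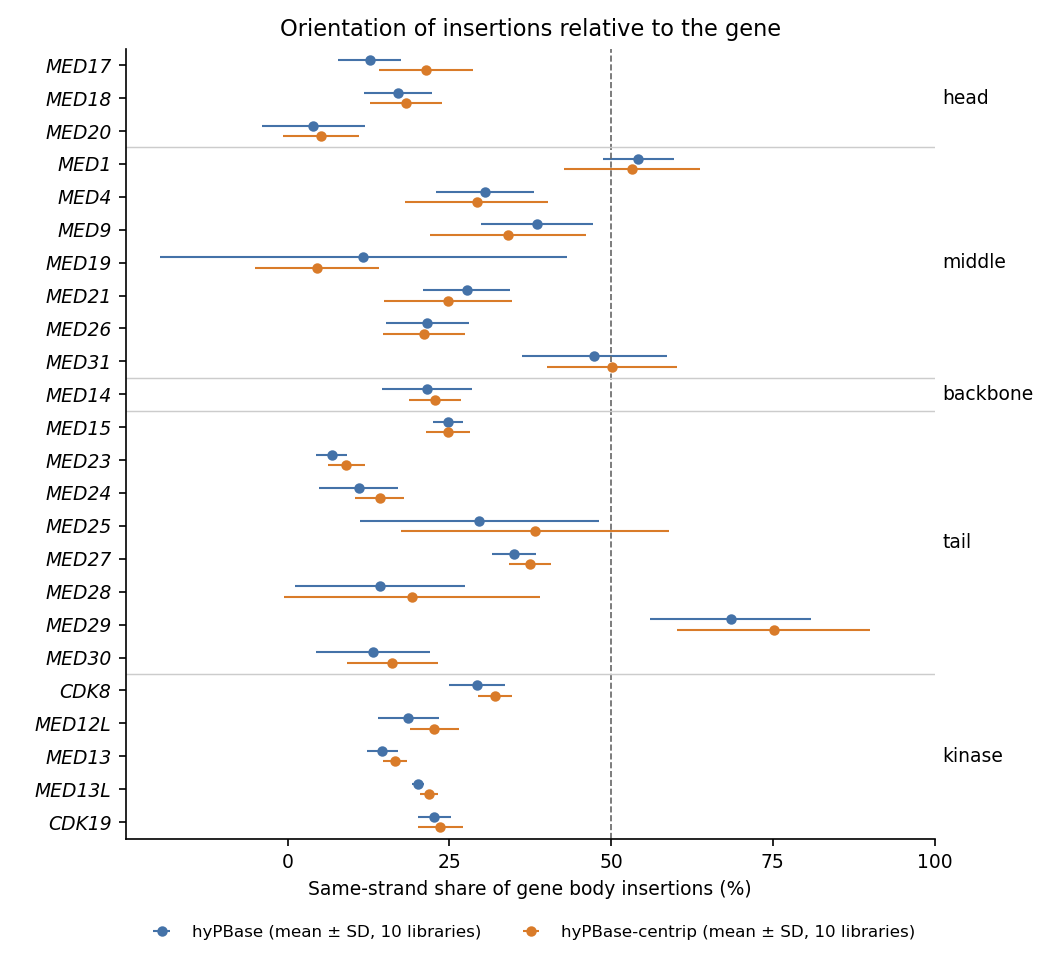
Same-strand share of body insertions in percent for the 24 members tested, as mean and SD over 10 libraries per helper, with the dashed line at 50%. Error bars are symmetric and run below 0 for MED20, MED19 and, with hyPBase-centrip, MED28, which have few insertions per library. The means of both helpers lie left of the line in all but MED1, MED29 and, for hyPBase-centrip, MED31.

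Between the helpers the share over all members was 22.6% ± 0.995 in the hyPBase libraries and 24.2% ± 1.03 in the hyPBase-centrip libraries (SD, n = 10 for each helper). In the interaction test, 0 of the 24 members were called by edgeR, where 1.72% of all genes were. There 4 members had an unadjusted p under 0.05, with no share over all genes taken. No other tool was run for the interaction. Its median log2 difference was 0.16 over the 24 members and 0.085 over all genes tested. Both medians leaned toward a higher share with hyPBase-centrip. MED13L, with the most insertions, had a share of 19.0% to 21.6% with hyPBase (median 20.4%) and 20.4% to 23.8% with hyPBase-centrip (median 21.5%), a log2 difference of 0.16 (SE 0.0496, adjusted p = 0.0619). MED17 had 12.7% ± 4.91 and 21.4% ± 7.29 (SD, n = 10 each; log2 0.72, SE 0.27, adjusted p = 0.159). This test recovered 26.5% of simulated 1.5-fold changes over all genes, so differences of that size were often missed there. Among the members the SE ran from 0.0496 (MED13L) to 1.25 (MED19), so a miss is less likely in genes with many insertions.

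The lean was not even along the genes. In a comparison added after the values were seen, the same 3 parts of the body were used, and 17 members had at least 50 insertions at both ends. Of these, 16 differed (73.7% of all genes): 12 had a higher same-strand share in the 3′ than in the 5′ part, where 44.1% of all genes did, and 4 a lower one, where 29.6% did. The median log2 difference was 1.82 over the 17 members and 0.26 over the 10679 genes tested. It was 1.89 in the proteasome genes, where 15 of the 20 tested had a higher share in the 3′ part, and -0.52 in the Integrator genes, where 2 of 10 had.

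The widest spans were those of MED18 and MED1. MED18 went from 4.03% in the 5′ part to 81.3% in the 3′ part (log2 6.43), and its libraries ran from 0% to 11.6% and from 42.9% to 100%, which do not overlap. MED1 went from 1.68% to 71.4% (log2 6.33, SE 0.362, adjusted p = 4.13e-61), and to 53.5% in the 3′ part without its most used site. MED23 went from 2.42% to 24.8% (log2 3.56), MED21, a hinge of the middle module, from 5.44% to 41.2% (3.44), MED17 from 5.00% to 36.6% (3.26) and MED14 from 6.36% to 37.4% (2.87). MED4, MED13, MED30, MED27 and MED12L had log2 differences between 2.59 and 1.55. MED13L changed little, from 16.9% to 19.1% (log2 0.21, SE 0.08, adjusted p = 0.0127), and its difference was 0.02 (adjusted p = 0.845) when each position and orientation was counted once per library. Counted so, MED18's was 3.85.

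The 4 genes with the opposite order were MED26 (35.0% to 15.0%), CDK19 (28.8% to 19.3%), MED15 (32.8% to 26.6%) and CDK8 (34.6% to 30.4%). All counted insertions of MED26 lay at sites that also belong to another protein-coding gene on the same strand. With each position and orientation counted once per library the log2 difference was -0.90 in place of -1.59 for MED26 and -0.43 in place of -0.76 for CDK19. MED15's order came from its most used site, which lies in the 5′ part. Without it the 5′ part had 15.6%, below the 3′ part. CDK8 passed narrowly (log2 -0.27, SE 0.125, adjusted p = 0.0407) and did not pass with at least 2 reads per insertion (adjusted p = 0.292), with positions counted once (adjusted p = 0.0615) or without hyPBase-centrip replicate 3 (adjusted p = 0.0599). MED31 did not pass, with 49.6% and 51.7%. Of the 16 members with too few insertions for the test, 10 had a higher share in the 3′ part, 4 a lower one (MED9, MED11, MED16 and MED28) and 2 lacked a value at one end or both. MED29 had 5.88% of 34 insertions in the 5′ part and 81.7% of 186 in the 3′ part, MED10 4.88% of 41 and 88.0% of 25, and MED9 37.8% of 217 and 17.8% of 45.

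**Figure D5:**
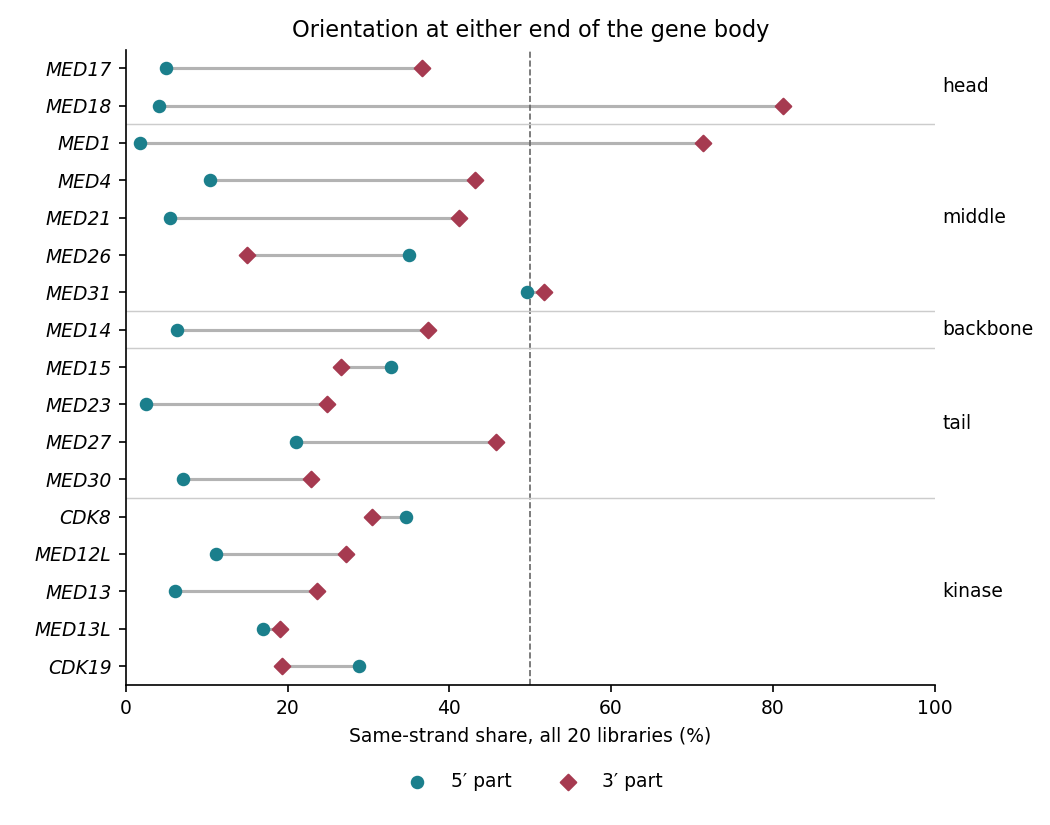
Same-strand share in percent in the 5′ part (circles) and the 3′ part (diamonds) of the body, all 20 libraries together, for the 17 members with at least 50 insertions at both ends, with the dashed line at 50%. The diamond lies to the right of the circle by a wide span in MED18 (4.03% to 81.3%) and MED1 (1.68% to 71.4%), and to the left in MED26, CDK19, MED15 and CDK8.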

How the data were processed

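Bulk Calling Cards libraries of K562 cells were analysed, 10 per helper. A further 2 libraries, whose labels disagree on the helper, entered no comparison. Per the labels, self-reporting transcripts were amplified from total RNA, and the submitters' processing notes name Trimmomatic, BWA and SAMtools, with no versions, and the build hg38. The authors deposited a list of insertions per library with position, reads, orientation and barcode. The deposited read counts were not normalized. Here each line was counted as 1 insertion, which makes counts of insertions per region, on TTAA sites of hg38 and genes of GENCODE version 44. Insertions were not counted by molecular identifiers, and genes with under 100 insertions have coarse per-library values.

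Tests were run in edgeR 4.0.16 (R 4.3.3) over all protein-coding genes and adjusted over all genes tested, with a threshold of 0.05. The filter was at least 10 insertions in 10 libraries for the helpers and 100 insertions for comparisons within genes. DESeq2 1.42.0 was an alternative. Others counted only insertions with at least 2 reads, collapsed barcodes, dropped the filter for the helpers, or added the replicate number or library size. Further ones changed windows (promoters of 2 kb, flanks of 50 kb) or left out hyPBase-centrip replicate 3, the smallest library of that helper. The tests were tested on simulated data, whose dispersion was set in advance and not estimated from these libraries. Members and lists were chosen with earlier results of these data known. Named genes were the 5 highest and 5 lowest bodies, every member called between helpers, the paralog pairs, among those tested the 3 highest and 3 lowest same-strand shares and the 3 highest promoter to flank ratios, and the genes holding the 5 most used sites. Other members are given inside their module or by range, and MED9, MED10, MED11, MED12 and MED17 in the orientation results were picked after their values were seen. The same-numbered libraries of the helpers did not vary together (correlations of their deviations from -0.0445 to 0.0384, 0 of 10 above 0.1).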

Additional observations from a re-analysis of the deposited data

Results flagged for a closer look

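Each helper's 10 libraries were screened for an extreme value by Dixon's test (critical value 0.466) in 74 cases, and 2 were found, where chance alone gives about 1 in 20, or 3.7. The body of MED31 had a relative density of 3.82 in hyPBase-centrip replicate 2, and the next highest library of that helper had 2.89. The body of MED24 had 5.72 in hyPBase-centrip replicate 3, and the next highest had 4.48. The cause of either was not tested.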

How the results depend on the processing

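The count of members called between the helpers was 1 (MED24) in the bodies with library size as a term, and 0 in the flanks with DESeq2, collapsed barcodes, 50 kb flanks or the library size term. CCNC's flank difference was 0.24 (DESeq2), 0.16 (collapsed), -0.028 (50 kb, reversed) and 0.23 (library size). Over all genes, calls between helpers in the bodies were 305, and 20 with collapsed barcodes and 538 with the library size term. At the promoters they were 79, and 36 with DESeq2, 0 collapsed, 134 with library size, 43 with no filter and 174 with 2 kb windows. In the flanks they were 277, and 170 with DESeq2, 145 with at least 2 reads, 0 collapsed and 435 with 50 kb. Calls of the orientation by helper interaction were 242, and 101 with at least 2 reads and 2 collapsed. MED31's orientation ratio of -0.01 turned to 0.042 collapsed and 0.014 without hyPBase-centrip replicate 3, MED1's turned to -0.94 collapsed, and MED15's change along the gene turned from -0.41 to 0.49 collapsed. The median body density of 1.15 was 1.32 collapsed, 1.42 in distinct positions and 0.878 scaled to the 500 kb around. The promoter median of 4.97 was 4.2 in distinct positions, 4.00 scaled and 5.95 at the MANE Select start, a choice made after seeing the data. Over all genes the promoter median of 1.67 was 2.12 in distinct positions and 2.02 collapsed. The flank median of 1.94 was 2.22 with at least 2 reads and 1.28 scaled. The same-strand share of 23.5% was 25% collapsed. The cause of these changes was not tested. With the replicate number as a block, which does not pair these libraries, 290, 64 and 245 genes were called in bodies, promoters and flanks, and CCNC had 0.24 (adjusted p = 0.038). It changed no call of a member. Over all settings, 86 counts or medians kept within their limits and 27 moved, and of the values of single genes 89 kept their call, 5 turned, 7 lost it and 3 gained one. Depth limits the 9 members not in the main test for helper differences in the body and the 25 at the promoter.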
